A study of Homo sapiens with 6 samples.

Results

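The peaks described here are the regions of histone H3 lysine 27 trimethylation (H3K27me3) whose centre lay at most 1000 bp from a transcription start site in HL-60 cells. HL-60 is a human leukaemia line of the granulocyte lineage, labelled here as myeloblast. Cells knocked out for JMJD3, a histone demethylase encoded by KDM6B, were set against parental cells that carry no listed modification. The sources used here do not give how the knockout was made or whether it is 1 clone. Chromatin immunoprecipitation with sequencing was done for H3K27me3 and for trimethylation of lysine 4 (H3K4me3), and the series holds 6 samples, of which the 2 inputs were not analysed here. The antibody field of both H3K27me3 libraries reads H3K4me3, with another catalogue number than the H3K4me3 libraries have, and the mark was read from the sample titles. Members were chosen by distance alone, as distinct regions of either H3K27me3 list with at least 1 start site within 1000 bp. There were 414 of them among 6812 H3K27me3 peaks and among 65225 peaks of both marks. JMJD3 KO cells had 184 of 3234 H3K27me3 peaks at a start site (5.69%, Wilson 95% interval 4.94 to 6.54%), and parental cells had 230 of 3578 (6.43%, interval 5.67 to 7.28%). Each genotype and mark had 1 library, so differences have no replicate check and no test between genotypes was possible. Intervals cover counting error only, and neighbouring peaks are not independent. The lists hold no read counts, so depth and the amount of the mark in a region are unknown. A peak's width is the extent of the region that was called.

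H3K27me3 is written by Polycomb repressive complex 2 and is found over genes that a cell type keeps silent, often developmental regulators and genes of other lineages. JMJD3 and its relative UTX, encoded by KDM6A, remove it. H3K4me3 is a mark of active or poised promoters, most of all those rich in CpG dinucleotides, and promoters that hold both marks are called bivalent in stem cells.

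Promoters of 6 genes show the contrast in sequence that runs through the results, and they were chosen by a rule that used peak width and H3K4me3 state. They belong to the 3 widest regions with H3K4me3 in both genotypes and to the widest region without it in each class of genes (marked in both genotypes, in JMJD3 KO only, in parental cells only), among coding genes with a single transcript that is identical in the lists and in RefSeq, with olfactory receptors and 1 chromosome left out. Each is a RefSeq window of 300 bases around the start, 5′ to 3′ on the gene's strand, with CpG dinucleotides in capitals. Positions of these windows are from GRCh38.p14, whereas peaks are in hg19. CCDC39, needed to assemble the dynein arms of cilia, lies at chr3:180679440-180679739 on the minus strand and holds 24 CpG. DSEL, a relative of the dermatan sulfate epimerase, lies at chr18:67516671-67516970 on the minus strand and holds 41. DUSP1, a phosphatase of MAP kinases, lies at chr5:172771146-172771445 on the minus strand and holds 36. DSEL had start-site H3K27me3 in the parental list only, CCDC39 and DUSP1 in the JMJD3 KO list only. The CCDC39 region was overlapped by a parental peak of 639 bp centred farther than 1000 bp from the start.
CCDC39: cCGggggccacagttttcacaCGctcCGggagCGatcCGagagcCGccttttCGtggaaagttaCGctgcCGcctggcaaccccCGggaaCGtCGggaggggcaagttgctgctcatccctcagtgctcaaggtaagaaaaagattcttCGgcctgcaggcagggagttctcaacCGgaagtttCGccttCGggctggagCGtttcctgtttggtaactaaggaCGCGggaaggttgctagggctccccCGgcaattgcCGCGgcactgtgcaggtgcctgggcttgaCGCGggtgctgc
DSEL: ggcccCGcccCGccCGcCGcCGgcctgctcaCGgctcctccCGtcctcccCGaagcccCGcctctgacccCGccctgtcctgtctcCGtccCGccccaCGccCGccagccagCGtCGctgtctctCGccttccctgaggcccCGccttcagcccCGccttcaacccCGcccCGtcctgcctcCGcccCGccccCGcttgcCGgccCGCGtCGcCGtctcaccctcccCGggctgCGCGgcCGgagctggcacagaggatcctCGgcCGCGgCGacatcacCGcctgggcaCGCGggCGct
DUSP1: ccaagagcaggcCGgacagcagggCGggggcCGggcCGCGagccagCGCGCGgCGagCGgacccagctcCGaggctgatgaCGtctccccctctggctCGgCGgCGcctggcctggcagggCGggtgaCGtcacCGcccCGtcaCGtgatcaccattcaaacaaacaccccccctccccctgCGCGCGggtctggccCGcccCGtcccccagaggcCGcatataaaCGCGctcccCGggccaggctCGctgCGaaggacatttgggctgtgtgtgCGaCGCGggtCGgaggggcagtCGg
The next promoters had start-site H3K27me3 and no H3K4me3 in either genotype. C7, a complement component, lies at chr5:40909247-40909546 on the plus strand and holds 2 CpG. CPLX4, a complexin of retinal synapses, lies at chr18:59318600-59318899 on the minus strand and holds 3 CpG. TECTB, a protein of the tectorial membrane of the inner ear, lies at chr10:112283150-112283449 on the plus strand and holds 3 CpG.
C7: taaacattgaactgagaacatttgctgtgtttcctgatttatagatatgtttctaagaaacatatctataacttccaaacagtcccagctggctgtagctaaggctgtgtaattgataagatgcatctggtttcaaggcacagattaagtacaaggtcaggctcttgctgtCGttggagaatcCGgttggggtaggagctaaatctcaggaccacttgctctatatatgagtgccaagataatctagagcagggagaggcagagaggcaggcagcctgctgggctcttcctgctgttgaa
CPLX4: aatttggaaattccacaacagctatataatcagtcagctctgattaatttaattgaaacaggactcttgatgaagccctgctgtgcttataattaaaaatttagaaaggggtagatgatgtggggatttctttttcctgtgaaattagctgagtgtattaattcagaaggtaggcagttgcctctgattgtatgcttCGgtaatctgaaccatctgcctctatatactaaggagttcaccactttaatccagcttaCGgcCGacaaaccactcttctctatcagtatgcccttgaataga
TECTB: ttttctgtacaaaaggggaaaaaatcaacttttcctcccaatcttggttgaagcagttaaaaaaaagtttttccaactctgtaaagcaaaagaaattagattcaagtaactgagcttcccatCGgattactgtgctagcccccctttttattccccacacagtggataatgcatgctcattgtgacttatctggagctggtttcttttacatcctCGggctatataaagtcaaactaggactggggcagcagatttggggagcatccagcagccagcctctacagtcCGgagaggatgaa
C7 carried start-site H3K27me3 in both genotypes, CPLX4 in the JMJD3 KO list only and TECTB in the parental list only.

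MicroRNA genes were among the members too, and 5 mature sequences from RefSeq are shown with the seed (bases 2 to 8) in capitals. MIR216B, MIR30A and MIR30C2 follow the naming rule, and MIR206 and MIR133B were chosen after their values were seen, because they are neighbours. miR-206 and miR-133b are microRNAs of skeletal muscle.
miR-30a-5p: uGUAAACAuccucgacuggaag
miR-30c-5p: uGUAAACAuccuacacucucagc
miR-133b: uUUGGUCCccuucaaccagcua
miR-206: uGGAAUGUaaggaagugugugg
miR-216b-5p: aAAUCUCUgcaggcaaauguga
miR-30a-5p and miR-30c-5p share the seed GUAAACA, and the other seeds differ from it and from each other. Both miR-30 genes carried start-site H3K27me3 in the JMJD3 KO list only, with 1726 bp at MIR30A (chr6:72113126-72114851) and 1729 bp at MIR30C2 (chr6:72085214-72086942), against none in the parental list. The nearest parental peak lay 20175 bp from the MIR30A region but only 1218 bp from the MIR30C2 region. MIR133B also had a region in the JMJD3 KO list only, of 450 bp at chr6:52012554-52013003. Its neighbour MIR206 had 379 bp in the JMJD3 KO list and 971 bp in the parental list. MIR216B had 1590 bp in JMJD3 KO and 2943 bp in parental cells.

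The peaks were not gathered at start sites in either genotype. All pairs of a peak and a start site within 20 kb were counted in bins of 1 kb. For JMJD3 KO, the bin just before the start site held 112 pairs and the bin just after it 87, and the 40 bins ran between 80 and 140. For parental cells, these bins held 123 and 122 pairs, and the 40 bins ran between 107 and 155. Pairs within 1000 bp made up 4.38% of all JMJD3 KO pairs (199 of 4545) and 4.77% of all parental pairs (245 of 5134). H3K4me3 in the same cells behaved otherwise, with 36.9% of JMJD3 KO pairs and 35.1% of parental pairs within 1000 bp. Of the start-site H3K27me3 peaks, 102 of 184 in JMJD3 KO (55.4%) and 103 of 230 in parental cells (44.8%) reached across the start site itself. Few served more than 1 gene: 5 peaks in JMJD3 KO and 6 in parental cells lay at start sites of 2 gene symbols, such as CCR10 and CNTNAP1 in parental cells. In 1 such peak of each genotype the symbols were LINC00948 and MRLN, which share their single start site.

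**Figure D1:**
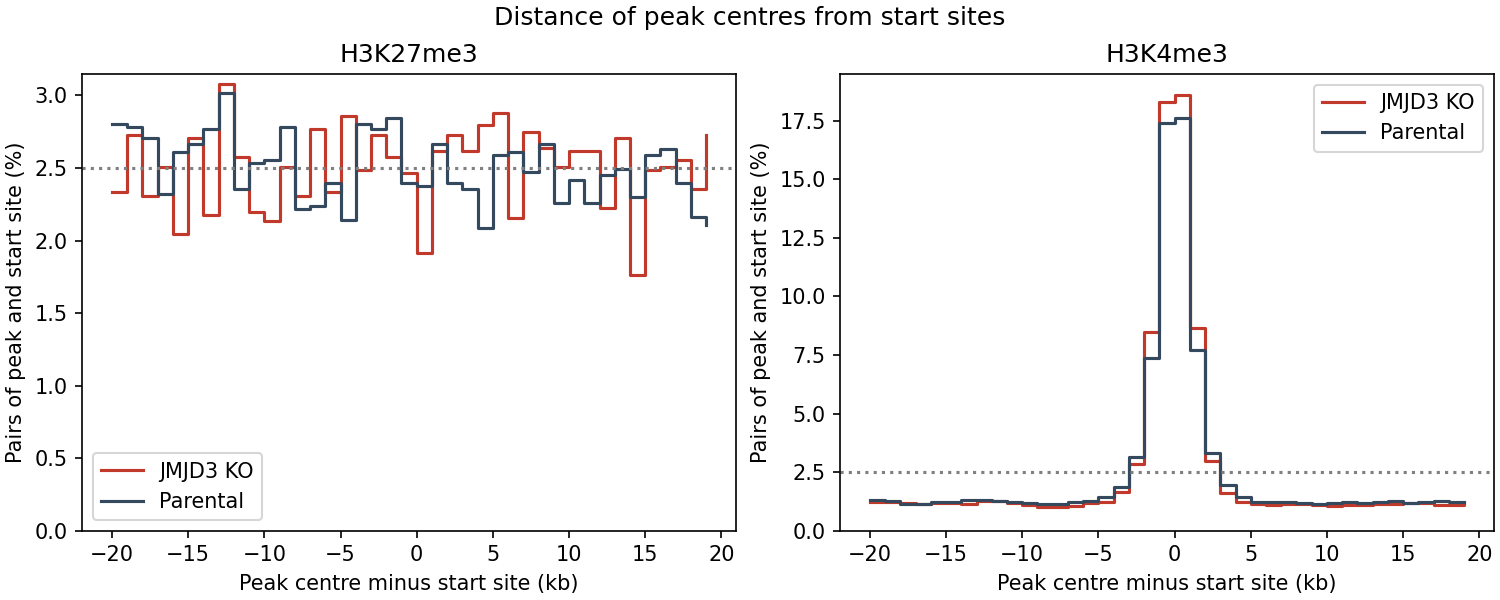
Share of pairs of a peak and a start site (y, percent) in bins of 1 kb of the distance from start site to peak centre (x, kb), for H3K27me3 at left and H3K4me3 at right, with JMJD3 KO in red, parental in dark blue and an even spread as a dotted line. The H3K27me3 lines stay near the dotted line at the start site, while the H3K4me3 lines peak there with 10411 and 10584 JMJD3 KO pairs and 13054 and 13210 parental pairs in the innermost bins.

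The distance limit cut through a continuous spread. The last peaks inside it were those of FAM216B at 984 bp and ACMSD at 996 bp in JMJD3 KO, and of FAXC at 980 bp and MEIS3 at 986 bp in parental cells. The first peaks outside it were those of ZNF385B at 1002 bp and ATP13A5 at 1007 bp in JMJD3 KO, and of HAPLN2 at 1001 bp and FLG-AS1 at 1002 bp in parental cells. The FLG-AS1 case shows what the limit does to a wide domain. Its parental region was 12110 bp wide with a centre just outside the limit, so FLG-AS1, an antisense RNA gene beside filaggrin, counted as marked in JMJD3 KO only, through a region of 1653 bp that lay wholly inside the parental one. HAPLN2 likewise counted as JMJD3 KO only, with 330 bp, beside an overlapping parental region of 890 bp.

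Most start-site H3K27me3 peaks were listed in 1 genotype. In JMJD3 KO, 58 of 184 were overlapped by at least 1 bp of a parental peak (31.5%, interval 25.2 to 38.6%), beside 29.6% of all JMJD3 KO H3K27me3 peaks. In parental cells, 69 of 230 were overlapped by a JMJD3 KO peak (30%, interval 24.5 to 36.2%), beside 27.2% of all parental H3K27me3 peaks. Both shares were near those of the whole lists, and which genotype had the higher share changed with the setting. Sharing went with width: in parental cells, 46 of 114 members at or above the list's median width were overlapped (40.4%), against 23 of 116 narrower ones (19.8%). In JMJD3 KO these shares were 36 of 101 (35.6%) and 22 of 83 (26.5%), with intervals that overlapped. Peaks away from start sites had 39.3% of wide and 19.7% of narrow peaks overlapped in JMJD3 KO, and 37.4% and 16.7% in parental cells. A wider region meets another peak by 1 bp more readily, so the link with width is in part fixed by the definition of overlap. The share rested on what counted as overlap. When at least 50% of the peak had to be covered it was 19.02% in JMJD3 KO and 18.26% in parental cells, and 9.78% and 9.13% when this held for both peaks.

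Members without a counterpart stood closer to the other genotype's peaks when they were parental. Of 126 unshared JMJD3 KO members, 50 had a parental H3K27me3 peak within 20 kb (39.7%, interval 31.6 to 48.4%), and the median gap was 62.74 kb. Of 161 unshared parental members, 100 had a JMJD3 KO peak within 20 kb (62.1%, interval 54.4 to 69.2%), and the median gap was 7.516 kb. These intervals did not overlap, but they cover counting error only and are no test between genotypes. The same shares for unshared peaks away from start sites were not computed, so the difference is not shown to be particular to members. Members also sat in company within their own list. A further H3K27me3 peak lay within 20 kb of 118 of 199 marked start sites in JMJD3 KO (59.3%) and of 157 of 245 in parental cells (64.1%), with at most 8 and 10 peaks in that range. Among the other start sites of each list, 36.1% in JMJD3 KO (915 of 2537) and 43.9% in parental cells (1099 of 2501) had at least 2 such peaks. A marked start site has a peak at the middle of its 20 kb range, whereas the other start sites have their peaks off centre. The comparison is therefore in part fixed by how members were chosen.

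**Figure D2:**
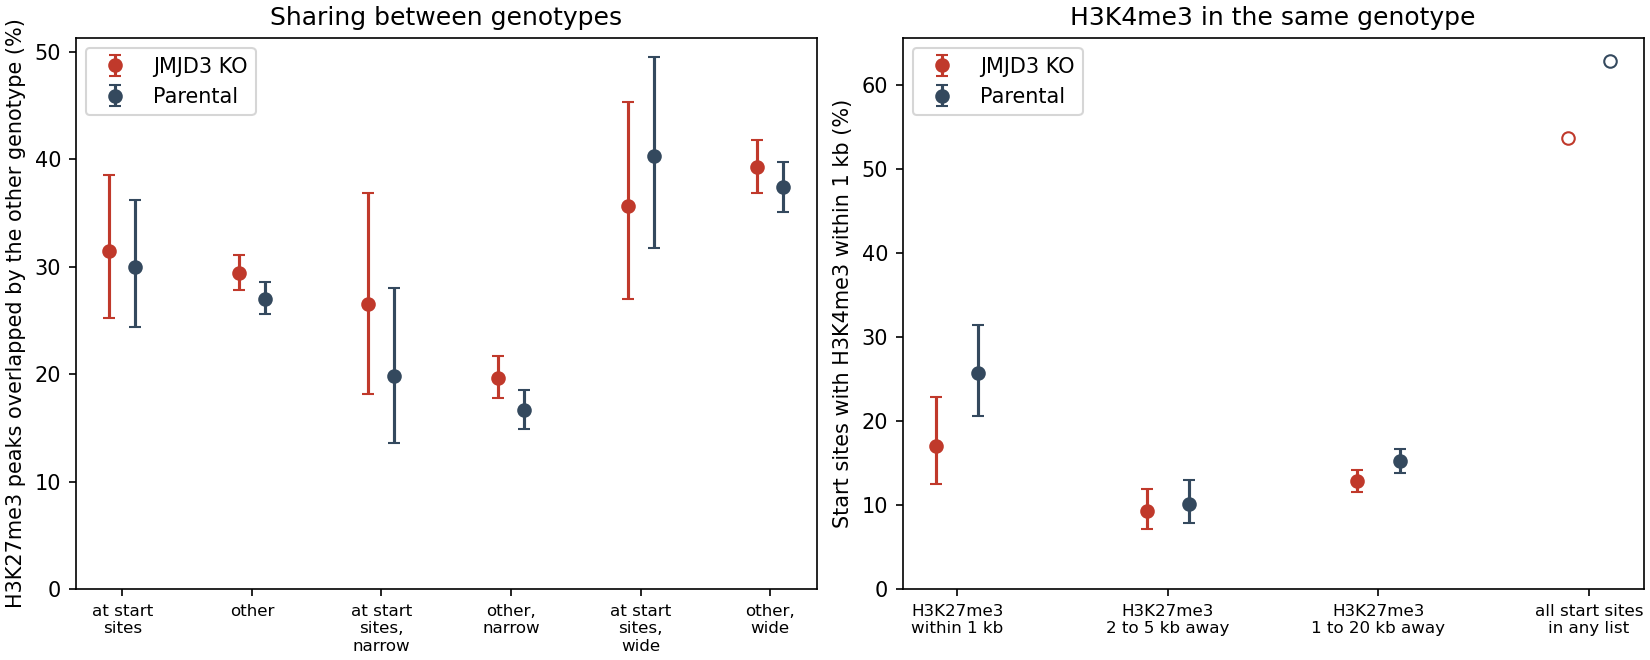
At left, the share of H3K27me3 peaks overlapped by the other genotype (y, percent), for peaks at start sites and other peaks, all together and split at the median width of the list. At right, the share of start sites with H3K4me3 within 1 kb (y, percent) by where H3K27me3 lay. JMJD3 KO is red and left of parental in dark blue, and bars are Wilson 95% intervals. Open points are all 22016 start sites in any list, at 53.7% in JMJD3 KO and 62.9% in parental cells.

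Start-site peaks were about as wide as other H3K27me3 peaks of their list. The median width was 1101 bp in JMJD3 KO (95% order-statistic interval 978 to 1198 bp, n = 184), against 1028 bp for the other 3050 peaks. In parental cells it was 902.5 bp (interval 786 to 995 bp, n = 230), against 909.5 bp for the other 3348. The intervals of the genotypes overlapped between 978 and 995 bp, and the full lists had medians of 1032 bp in JMJD3 KO and 909 bp in parental cells. Among peaks that span a start site, wherever their centre lay, the order was turned, with medians of 1590 bp in JMJD3 KO and 1754 bp in parental cells. Covered length was 244 kb in JMJD3 KO and 281.3 kb in parental cells. Shared members were wider than unshared ones, with medians of 1324 and 1050 bp in JMJD3 KO and of 1347 and 786 bp in parental cells.

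Members lay at start sites of 365 gene symbols, with LINC00948 and MRLN counted separately, of which 52 were marked in both genotypes, 134 in JMJD3 KO only and 179 in parental cells only. The JMJD3 KO list held 186 such genes, or 1.03% of the 18086 gene symbols in any list, and the parental list held 231, or 1.28%. The 52 common genes were 28.0% of the JMJD3 KO genes and 22.5% of the parental ones. "Only" here refers to the 1000 bp limit. A parental peak lay within 20 kb of a start site in 58 of the 134 JMJD3 KO genes, and a JMJD3 KO peak in 119 of the 179 parental genes. When a gene counted as unmarked only with no peak within 5000 bp, the numbers were 164 in both, 98 in JMJD3 KO only and 103 in parental cells only.

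Among genes marked in both genotypes, width went either way. The median log2 ratio of summed width, JMJD3 KO over parental, was -0.16 (interval -0.71 to 0.54, n = 52), and 23 of the 52 genes were wider in JMJD3 KO. Of 83 overlapping regions with a member, 18 were at least 2-fold wider in JMJD3 KO (21.7%), beside 21.5% of all 924 overlapping H3K27me3 regions, and 20 were at least 2-fold narrower (24.1%), beside 21.2%. These shares are near the background. KCTD1, a BTB-domain repressor of transcription, had the widest JMJD3 KO region at 7792 bp (chr18:24233566-24241357), and a parental one of 8469 bp. SPRR1A, a precursor of the cornified envelope of skin, had 1119 bp in JMJD3 KO against 9536 bp in parental cells (chr1:152951253-152960788), a difference of -8417 bp. ARHGEF12 had 345 bp against 3970 bp. Its parental region overlapped JMJD3 KO peaks of 1642 bp in all, of which only the 345 bp one was centred within the 1000 bp limit. C7 had 516 bp in JMJD3 KO against 2460 bp. NEDD4L, a ubiquitin ligase, had 1482 bp in JMJD3 KO and 4783 bp in parental cells summed over several alternative starts. In the other direction, ESR1, the oestrogen receptor alpha gene, had 3145 bp in JMJD3 KO (chr6:152009586-152012730) against 503 bp in parental cells, where the JMJD3 KO region overlapped 1751 bp of parental peaks. C1orf61 had 3849 bp against 1424 bp, the olfactory receptor gene OR4F6 4032 bp against 1965 bp, and RIMKLB 2795 bp against 774 bp.

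**Figure D3:**
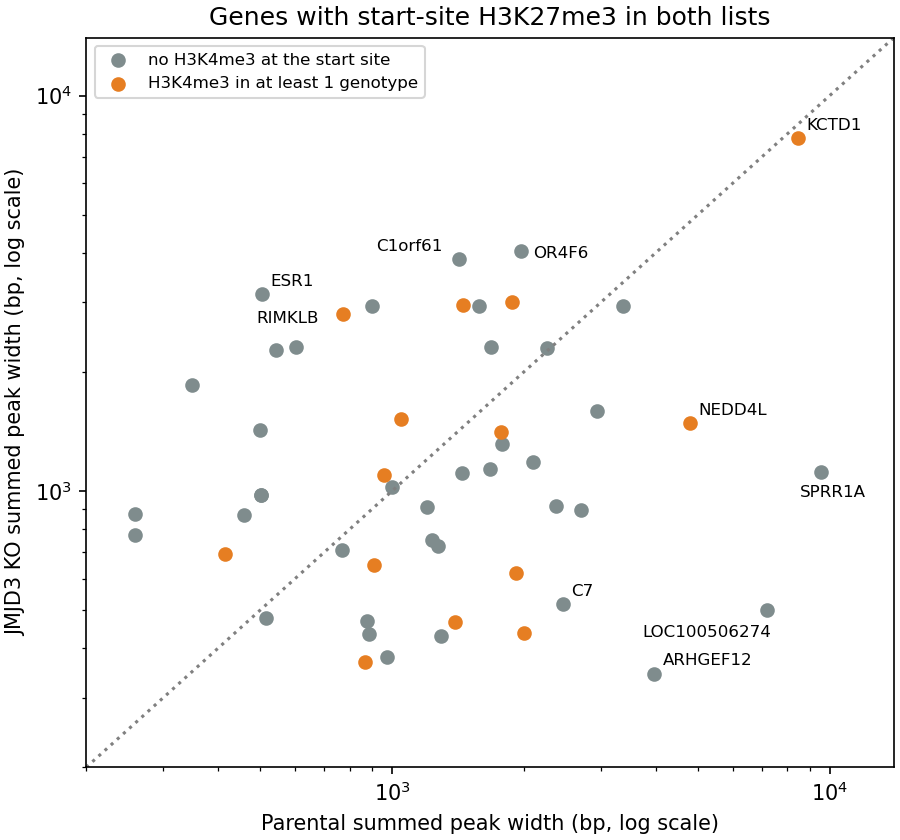
Summed width of start-site H3K27me3 regions per gene in JMJD3 KO (y, bp, log scale) against parental cells (x, bp, log scale) for the 52 genes marked in both, with genes that had H3K4me3 at a marked start in at least 1 genotype in orange and equal width as a dotted line. Points lie on both sides of the line, from SPRR1A at 1119 bp against 9536 bp to ESR1 at 3145 bp against 503 bp.

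Some wide regions had no overlap in the other genotype. The widest of these in JMJD3 KO lay over a start of IGF2BP2, an RNA-binding protein gene (chr3:185536522-185540981, 4460 bp), with no parental peak closer than 53210 bp. CPLX4 had 3352 bp (chr18:56983677-56987028), and the nearest parental peak was 23817 bp away. A2MP1, a pseudogene of alpha-2-macroglobulin, had 3244 bp with a gap of 534266 bp, and PTH, the parathyroid hormone gene, had 2737 bp with a gap of 218752 bp. SOX6, a transcription factor of muscle and cartilage development, had regions at 2 starts, of 2305 and 1343 bp, with parental peaks 3452 and 3900 bp away. In parental cells the widest unshared regions were those of BTBD11 with 3393 bp, LOC340113 with 3181 bp and TLE2 with 2623 bp (chr19:3027508-3030130). TLE2, a Groucho-type corepressor, stood alone in its region, with no JMJD3 KO peak within 12824905 bp. BTBD11 and CRNN, the gene of the epidermal protein cornulin with 2507 bp, had JMJD3 KO peaks only 291 and 35 bp away. TECTB had 2508 bp (chr10:114042014-114044521) with a gap of 18640 bp. Wide unshared regions were thus of both kinds, isolated ones and neighbours that missed an overlap by less than their own width.

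The members included genes of several tissues other than blood. Their counts stand beside 1.03% of all symbols with start-site H3K27me3 in JMJD3 KO and 1.28% in parental cells, and beside 13% and 12.9% of all symbols with H3K27me3 within 20 kb. A symbol is in a list only through a peak of either mark within 20 kb, and most listed peaks were H3K4me3. Families with little H3K4me3 can enter mainly through H3K27me3 itself, which raises their shares. Shares above those of all symbols are therefore not read as enrichment. Of 177 olfactory receptor genes in any list, 8 were marked at a start in JMJD3 KO (4.52%) and 12 in parental cells (6.78%), and 1 of them, OR4F6, in both. With a limit of 2000 bp the order turned, to 20 genes in JMJD3 KO and 18 in parental cells. No olfactory receptor start had H3K4me3 in either genotype. Wide members were OR4L1 with 2305 bp and OR2J3 with 2119 bp in JMJD3 KO, and OR1N2 with 1324 bp in parental cells. The epidermal differentiation complex, the skin-gene cluster on chromosome 1, had 3 of 51 genes marked in JMJD3 KO (5.88%) and 6 in parental cells (11.8%), its antisense RNA gene FLG-AS1 left out. SPRR1A was the only gene in both, SPRR2A had 2878 bp in JMJD3 KO only, and CRNN and LCE3D had 2507 and 1956 bp in parental cells only. Within 5000 bp of a start, however, SPRR2A had 13028 bp of parental peaks. In that range JMJD3 KO peaks summed to 1367 bp for CRNN and 0 bp for LCE3D. Within 20 kb of a start, 40 of these 51 genes had H3K27me3 in JMJD3 KO and 42 in parental cells. For the 177 olfactory receptors the counts within 20 kb were 118 in JMJD3 KO and 105 in parental cells. Keratins had none of 30 marked at a start in JMJD3 KO and 3 in parental cells: KRT28 with 1815 bp, KRT26 with 1522 bp and KRT20 with 1163 bp. Within 20 kb, 18 keratin genes had H3K27me3 in each genotype. Among defensins, serpins and protease inhibitors, 2 of 59 were marked in JMJD3 KO and 5 in parental cells.

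Neighbouring genes sometimes shared a state. With start sites at most 100 kb apart, 8 runs of 3 or more marked genes were found, and they were picked out after their values were seen. The longest ran over 328.4 kb of the epidermal complex, where LCE3D, CRCT1, LCE2D, LCE2A, C1orf68, KPRP and LCE6A were all marked in parental cells and none in JMJD3 KO at a start. One of them, LCE2D, nevertheless had a parental region that overlapped JMJD3 KO peaks of 4362 bp in all, and for the other 6 genes the nearest JMJD3 KO peak lay between 2294 and 7540 bp away. PATE1, PATE2 and PATE4 on chromosome 11, expressed in testis and prostate, were marked in parental cells only, with 929, 576 and 404 bp. Within 5000 bp of a start, however, JMJD3 KO peaks summed to 3001, 0 and 1136 bp for these genes. TAAR5, TAAR8 and TAAR9 on chromosome 6, receptors for trace amines, were marked in parental cells only, with 739, 420 and 2184 bp. Their JMJD3 KO peaks within 5000 bp of a start summed to 387, 0 and 6881 bp, the last against 4471 bp in parental cells. The keratin genes KRT20, KRT26 and KRT28 named above formed a run on chromosome 17. JMJD3 KO peaks within 5000 bp of a start summed to 688 bp for KRT26 and to 0 bp for KRT20 and KRT28. The other runs mixed states. CRNN was marked in parental cells only, beside FLG-AS1 and FLG2 in JMJD3 KO only. IQUB was marked in JMJD3 KO only, beside ASB15 and NDUFA5 in parental cells only. In the runs of CCR10 and of JAKMIP2, genes marked in both genotypes stood beside genes marked in parental cells only. SCGB3A2, a secretoglobin of lung in the JAKMIP2 run, was marked in both genotypes, with 1855 bp in JMJD3 KO and 348 bp in parental cells. Chromosome 17, picked out after its values were seen, had the highest share in parental cells. There 10 of 43 H3K27me3 peaks were at a start site (23.3%), against 2 of 48 in JMJD3 KO (4.17%). The parental peaks of the keratin and CCR10 runs were among these 10. On chromosome 19 the shares were 16.0% (4 of 25) in JMJD3 KO and 15.5% (9 of 58) in parental cells.

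Developmental regulators, the textbook targets of Polycomb, gave small counts. None of 33 HOX genes and none of 33 forkhead genes had start-site H3K27me3 in either genotype; over all symbols the share was 1.03% in JMJD3 KO and 1.28% in parental cells, so such short lists hold little information. Within 20 kb, H3K27me3 was listed for 5 HOX genes in JMJD3 KO and 0 in parental cells, and for 7 and 3 forkhead genes. Among 90 homeobox genes outside the HOX clusters, 2 were marked in each genotype (2.22%). MEIS3 was marked in both genotypes, with 2999 bp in JMJD3 KO and 1879 bp in parental cells. PAX2, a regulator of kidney and eye development, had 1716 bp in JMJD3 KO only (chr10:102505421-102507136), and the nearest parental peak lay 1192860 bp away. The PAX2 start had H3K4me3 in both genotypes, 270 bp in JMJD3 KO and 717 bp in parental cells. TSHZ2 had 1301 bp in parental cells only, with 1187 bp of JMJD3 KO peaks within 5000 bp of a start. Of 11 SOX genes, SOX6 and SOX5 were marked in JMJD3 KO, with 3648 and 412 bp in sum, and none in parental cells. Of 25 bHLH and T-box factors, the neuronal factor genes NEUROD4 and NEUROD6 were marked in JMJD3 KO, with 2287 and 1091 bp, and none in parental cells. FGF14 was the only one of 43 WNT, FGF and BMP ligand genes with a member, of 1935 bp in JMJD3 KO. A parental peak of 2572 bp overlapped it, and parental peaks within 5000 bp of an FGF14 start summed to 5451 bp.

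Genes of neurons and of transport showed small counts in both directions. Of 84 potassium, sodium and calcium channel genes, 3 were marked in each genotype. SCN9A, a sodium channel of pain-sensing neurons, had 438 bp in JMJD3 KO against 2002 bp in parental cells, in regions 81 bp apart. SCN8A had 1308 bp in JMJD3 KO only. KCNA3 had 1909 bp and counted as parental only, yet a JMJD3 KO peak of 3163 bp centred beyond the 1000 bp limit overlapped that region. Of 54 neurotransmitter receptor genes, 1 was marked in JMJD3 KO (ADRA1B, 684 bp) and 4 in parental cells, the widest being CHRNA7 with 1127 bp. Of 268 solute carrier genes, 1 was marked in JMJD3 KO (SLC4A10, 1472 bp) and 3 in parental cells. Of 374 ZNF genes, 1 was marked in each genotype, and of 32 collagen and laminin genes none. Among non-coding genes, 10 of 972 microRNA symbols, host genes left out, were marked in JMJD3 KO (1.03%) and 13 in parental cells (1.34%), with 3 in both, which is close to the 1.03% and 1.28% over all symbols. Long intergenic non-coding RNAs had 6 of 377 in JMJD3 KO and 10 in parental cells. The neighbouring small nucleolar RNA genes SNORD113-4 and SNORD113-5, in an imprinted region, shared 1 JMJD3 KO region of 2305 bp (chr14:101402434-101404738), against separate parental regions of 1682 and 603 bp.

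Lists of housekeeping genes and of granulocyte-lineage markers held no member. None of 77 ribosomal protein genes, 68 replication-dependent histone genes, 7 cell cycle inhibitor genes and 13 genes of the H3K27 methylation machinery was marked in either genotype, where 1.03% of all symbols were marked in JMJD3 KO and 1.28% in parental cells, so 0 is near the background for lists this short. KDM6B and KDM6A had no H3K27me3 peak within 20 kb in either list. The 8 myeloid markers had no H3K27me3 within 20 kb, and 4 of them had H3K4me3 within 1000 bp of a start in JMJD3 KO and 5 in parental cells. CD33, SPI1, CEBPA and CEBPE had it in both genotypes, MPO in parental cells only with 2160 bp, and ELANE, AZU1 and PRTN3 in neither. Their summed H3K4me3 width was 1809 bp in JMJD3 KO and 8006 bp in parental cells. None of 4 erythroid and 4 epithelial markers had H3K4me3 at a start in either genotype. The epithelial keratin gene KRT5 had H3K27me3 within 20 kb, of 1234 bp in JMJD3 KO and 1567 bp in parental cells, and the other markers of these lists had none.

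Start sites under H3K27me3 held H3K4me3 less often than all start sites in the lists. A start site is listed only through a peak of either mark within 20 kb, and most listed peaks were H3K4me3. The lower share is therefore in part fixed by how the lists were made. In JMJD3 KO, 34 of 199 start sites with a member had an H3K4me3 centre within 1000 bp (17.1%, interval 12.5 to 22.9%), beside 53.7% of all 22016 start sites in any list. In parental cells it was 63 of 245 (25.7%, interval 20.7 to 31.5%), beside 62.9%. Start sites with H3K27me3 farther off had lower shares than the members. Where the nearest H3K27me3 centre lay 2 to 5 kb off, H3K4me3 was present at 55 of 591 start sites in JMJD3 KO (9.31%, interval 7.22 to 11.9%) and at 56 of 551 in parental cells (10.2%, interval 7.91 to 13.0%). Over all other start sites of the H3K27me3 lists, it was present at 12.9% in JMJD3 KO (interval 11.6 to 14.2%, 327 of 2537), an interval that overlapped that of the members, and at 15.2% in parental cells (interval 13.9 to 16.7%, 381 of 2501), below that of the members. With the H3K4me3 lists exchanged between genotypes, the JMJD3 KO members had H3K4me3 at 21.1% and the parental members at 18.8%, so the gap between 17.1% and 25.7% was not kept. The parental H3K4me3 list is the longer one, with 19645 start-site peaks against 15546 in JMJD3 KO. When the H3K4me3 peak had to span the start site, the shares were 8.04% in JMJD3 KO and 13.5% in parental cells.

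Both marks met at a start of 31 genes in JMJD3 KO and 57 in parental cells, 79 genes in all, of which 9 had both marks in both genotypes. Those 9, too many for the naming rule and listed after their values were seen, were ANKS1B, HEY1, KIF26B, NPTXR, NXPH4, PLEKHH3, RIMKLB, SERPINE2 and TRPS1. HEY1, a Notch target, had 1409 bp of H3K27me3 with 200 bp of H3K4me3 in JMJD3 KO, against 1770 and 585 bp in parental cells. SERPINE2, a protease inhibitor also called protease nexin, had 2958 bp with 1207 bp of H3K4me3 in JMJD3 KO, against 1453 and 1395 bp. RIMKLB had 998 bp of H3K4me3 in JMJD3 KO and 1441 bp in parental cells. Where the marks met, the regions often overlapped each other: 18 of 30 such members did in JMJD3 KO (60%) and 46 of 57 in parental cells (80.7%). Of the widest such regions, KCTD1 had H3K4me3 of 516 bp in JMJD3 KO and none at that start in parental cells. UNC5B, a netrin receptor, had 3477 bp of H3K27me3 at its start in JMJD3 KO with 171 bp of H3K4me3, against 1092 bp of H3K4me3 in parental cells. That H3K27me3 region was shared with parental cells, whose peaks within 5000 bp of a start summed to 1433 bp. DUSP1 had 1621 bp of H3K27me3 in JMJD3 KO only (chr5:172197140-172198760), with H3K4me3 of 738 bp in JMJD3 KO and 1078 bp in parental cells. GAREM, an adaptor of growth factor signalling, had the widest region of this kind, 8317 bp in parental cells (chr18:30045820-30054136). It counted as parental only, yet the region overlapped JMJD3 KO peaks of 8475 bp in all whose centres lay farther than 1000 bp from the start. PCGF5, a subunit of Polycomb repressive complex 1, had 5174 bp at one start in parental cells, overlapped by 3362 bp of JMJD3 KO peaks, with H3K4me3 of 936 bp in JMJD3 KO and 830 bp in parental cells.

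Where H3K4me3 was present in parental cells, it was missing in JMJD3 KO at 17.5% of all such start sites. At start sites with H3K27me3 in JMJD3 KO only, it was missing at 9 of 31 (29.0%, interval 16.1 to 46.6%). At those with H3K27me3 in parental cells only, it was missing at 17 of 52 (32.7%, interval 21.5 to 46.2%), and at those with H3K27me3 in both, at 2 of 11 (18.2%, interval 5.14 to 47.7%). The interval of the parental-only class lay above the background, and those of the other classes included it. The intervals of the classes overlapped each other. Parental H3K4me3 at member start sites had a median width of 840 bp (interval 609 to 1048 bp, n = 63). The median elsewhere was 1045 bp (n = 13789), which lies inside that interval. The part of parental H3K4me3 width in the missing H3K4me3 was not tested. In JMJD3 KO the medians were 536 bp (interval 401 to 738 bp, n = 34) and 559 bp. Start sites with H3K4me3 in both genotypes had a median log2 width ratio, JMJD3 KO over parental, of -0.66 (interval -0.99 to -0.31, n = 66) with a member in any genotype, and of -0.96 (interval -0.99 to -0.95, n = 11359) without.

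Promoters of genes with a member held less CpG than those of coding genes in any list. Most listed peaks were H3K4me3, a mark of CpG-rich promoters, so that set is not a neutral background. The table of all RefSeq windows does not depend on the lists. RefSeq promoters were matched for 219 of 272 protein-coding member genes (80.5%), by symbol or by an older name that shared a transcript. The ratio of observed to expected CpG in the 300-base window, which is 1 where CpG is as frequent as the C and G content gives, had a median of 0.401 (interval 0.288 to 0.563), against 0.813 for coding genes in any list (11598 windows) and 0.58 for all 27305 windows of the table. A ratio of at least 0.6 was found in 39.7% of member promoters, 74.8% of promoters of coding genes in any list and 49.0% of all windows. Coding genes listed with H3K27me3 but with no start-site peak lay in between, with a median of 0.591 and 49.8% at 0.6 or above, though only 75.7% of them were matched, too few for a check. Without H3K4me3 at the start in either genotype the members' median was 0.248 (interval 0.185 to 0.297, 158 windows), which is the state of C7, CPLX4 and TECTB above. For members with H3K4me3 only 73.5% of genes were matched. A fully matched subset, the 58 member genes whose single transcript was the same in the lists and in RefSeq, had a median of 0.161, against 0.774 for 2134 coding genes chosen the same way. Within it the median was 0.866 for 10 genes with H3K4me3 (interval 0.418 to 0.992) and 0.141 for 48 genes without (interval 0.0974 to 0.173). Many of these 48 were olfactory receptor genes or clustered keratin, epidermal complex, PATE and TAAR genes, so the subset leans to a few families. Medians without those families were not computed. The letters TATAAA, searched on both strands, were in 44 of the 219 member windows (20.1%, interval 15.3 to 25.9%), 7.86% of windows of coding genes in any list and 11.95% of all windows. In the genes with H3K27me3 and no start-site peak, matched at 75.7%, the share was 16.4%. A match is a description of the letters and not a binding site. RefSeq windows can belong to another start than the one listed, because the table holds 1 promoter per gene and a later build.

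**Figure D4:**
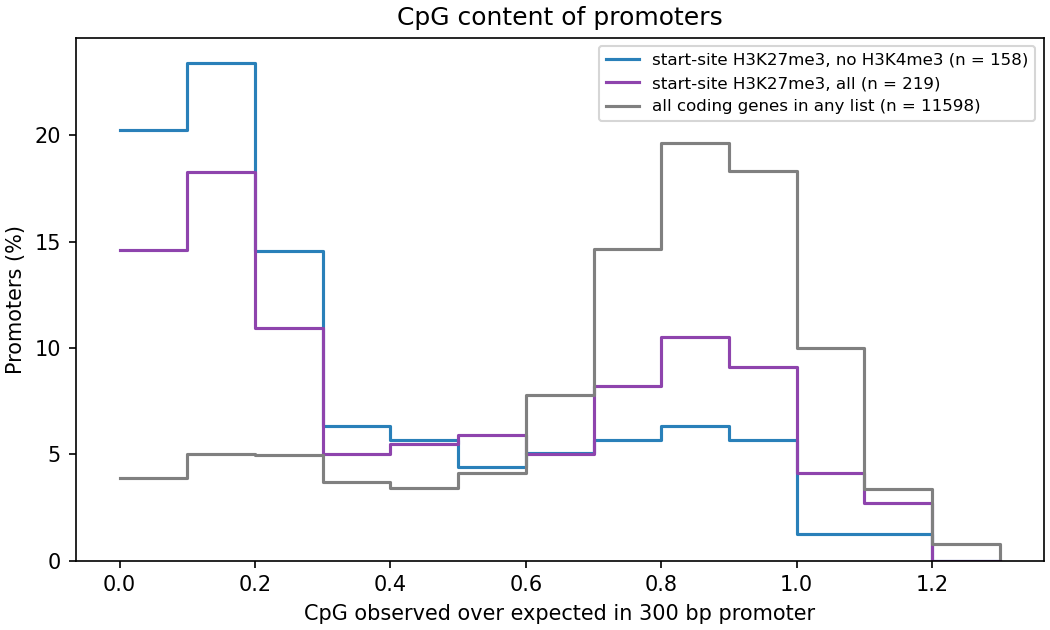
Share of promoters (y, percent) in bins of the observed over expected CpG ratio of the 300-base window (x, no unit), for coding genes with start-site H3K27me3 and no H3K4me3 (blue), all coding genes with start-site H3K27me3 (purple) and all coding genes in any list (grey). The blue and purple lines are highest at ratios under 0.3 and the grey line above 0.7, with medians of 0.248, 0.401 and 0.813.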

How the data were processed

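Chromatin immunoprecipitation with sequencing was compared in 4 libraries, 1 per genotype and mark. Tools named in the submitters' processing notes are MACS2 2.1.1, SAMtools and BWA 0.7.10, and the build named there is hg19; their settings, and how the inputs served, are not given in the sources used here. Per the file headers, each deposited list gives 1 line per pair of a peak and a RefSeq transcript start, with the chromosome, start, end, gene symbol, distance and score. The distance deposited by the authors, tested on the values, is the peak centre minus the start site in bp, within 20 kb. The deposited score is a function of that distance (largest error 5e-13) and was not used as peak strength. Starts were taken to be 0-based, which no source states, and positions are printed 1-based.

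A peak was 1 distinct combination of chromosome, start and end, and overlap meant at least 1 bp. Shares have Wilson 95% intervals and medians order-statistic intervals, computed with Python 3.11.15, pandas 2.3.3 and scipy 1.17.1, and the scripts were tested on simulated lists. Promoter and microRNA sequences come from RefSeq on GRCh38.p14, with 1 window per gene. Values of sets with under 80% of genes matched, where given, are marked as such and are description only. The members and the 31 gene lists were chosen with earlier results of these data known. Named genes are those of the 8 widest regions of each sharing state, the 5 largest gains and losses of width, the 10 widest with both marks per genotype, up to 4 per gene list, the peaks just inside and outside 1000 bp, KDM6B and KDM6A. Genes that the rule or a marker list holds and the text does not name are in part not reported here. A gene outside this rule is named to complete a count or as a neighbour. Alternatives changed the distance, width and overlap limits, the H3K4me3 rule and the promoter set.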

Additional observations from a re-analysis of the deposited data

How the results depend on the processing

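Of 102 alternative values for 20 results, 60 stayed within the counting error or, for counts, near the value reported, and 42 moved further. Of 34 alternatives given for both genotypes, 26 kept the order of JMJD3 KO and parental values and 8 turned it. The width order turned for spanning peaks, and the overlapped share, which hardly differed between genotypes, turned in 5 settings: 37.17% in JMJD3 KO and 45.9% in parental cells for spanning peaks, 30.26% and 30.94% for peaks of at least 500 bp, 30.98% and 32.08% for equal numbers of widest peaks, 39.7% and 41.3% with a gap of up to 1000 bp, and 35.6% and 40.4% at or above the median width. The H3K4me3 share turned with exchanged lists (21.1% and 18.8%) and the olfactory receptor count at 2000 bp (20 and 18). With centres at most 500 bp away there were 87 JMJD3 KO and 98 parental peaks, and 77 genes in JMJD3 KO only, 88 in parental cells only and 11 in both. At 2000 bp these were 389 and 475 peaks and 216, 297 and 161 genes. The epidermal complex then had 10 genes in JMJD3 KO and 18 in parental cells, and microRNAs 25 and 26. With peaks that span the start site there were 113 and 122 peaks with median widths of 1590 and 1754 bp, and 89, 100 and 25 genes. Peaks of at least 500 bp had medians of 1258 and 1055 bp. The overlapped share was 19.02% in JMJD3 KO and 18.26% in parental cells with 50% of the peak covered, and 9.78% and 9.13% with reciprocal cover. For parental peaks it was 21.3% with a centre at the same start site and 19.8% below the median width. H3K4me3 was at 8.04% and 13.5% of start sites when it had to span them and at 10.6% in JMJD3 KO when it had to overlap the H3K27me3 peak. The exchange of lists was added after the values were seen. Absence within 5000 bp gave 164 genes in both and 103 in parental cells only. The CpG ratio was 0.27 for genes with 1 start site, of which under 80% were matched, and 0.161 for genes with 1 transcript, both added after the values were seen.

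No paired analysis was possible because each genotype and mark has 1 library. Depth is unknown, so a missing peak is not an absent mark, and list length, peak width and sharing cannot be told apart from library depth or quality. Width measures called extent, and the 1000 bp limit acts on peak centres, so wide domains can fall outside it.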
